A study of Homo sapiens with 8 samples.

Results

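The genes described here encode 10 enzymes that oxidise, hydrolyse or sulfate drugs, hormones and other small molecules, out of 19775 genes measured in a human bile duct cancer line. They are the oxidase gene AOX1, the cytochrome P450 genes CYP1A1 and CYP1B1, the aldehyde dehydrogenase genes ALDH1A1, ALDH1A3 and ALDH3A1, the epoxide hydrolase gene EPHX1, and the sulfotransferase genes SULT1B1, SULT1E1 and SULT2B1. They were picked by symbol with earlier results of the same comparison in view. Their differences between the groups are therefore given as a description, with no test of the set, and support nothing beyond themselves. Where a member is later said to be called, that is its result in the fit over all genes, not independent evidence. Where a gene has several probe sets with 1 symbol in the platform annotation, the one brightest on average across the arrays stands for it. All 10 were measured, by 16 such probe sets, and no filter on low values was applied.

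The cells were HuCCT1, an established cholangiocarcinoma line, and RNA was read on 8 Affymetrix expression arrays. On 4 arrays the cells carried YAP shRNA 1, a hairpin RNA against YAP1, the coactivator at the end of the Hippo pathway, and on 4 they carried a control shRNA with a scrambled sequence. Cells of both groups received doxycycline at 100 ng/ml to switch on the hairpin, starting 3 days before they were seeded, so the drug itself is shared and cells without it were not analysed here. A single hairpin against YAP1 in a single line limits the model, the labels do not say whether replicates were separate cultures, and the spread between arrays may therefore be technical. The series title speaks of overexpression, whereas the design text and the sample labels give an shRNA. YAP1 stood at 10.40, 10.55, 10.51 and 10.54 on the YAP shRNA 1 arrays (deposited log2 values). The control shRNA arrays gave 12.59, 12.61, 12.77 and 12.60. YAP1 thus fell 4.41-fold (log2 fold change -2.14, standard error 0.056, limma adjusted p = 6.15e-07).

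Drug metabolism is usually divided into a first step that adds or exposes a reactive group and a second that couples a water-soluble group to it. Cytochrome P450s, aldehyde oxidase, aldehyde dehydrogenases and epoxide hydrolases act mainly in the first step, and cytosolic sulfotransferases in the second, with the cofactor PAPS as sulfate donor. The same enzymes handle the body's own molecules: the ALDH1A enzymes make retinoic acid, CYP1A1 and CYP1B1 hydroxylate estradiol, and SULT1E1 inactivates estrogens. CYP1A1 and CYP1B1 are classical targets of the aryl hydrocarbon receptor, a ligand-activated transcription factor. The liver is the main site of many of these reactions, and epithelia such as the gut and the bile duct express part of the set.

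The windows before the transcript starts are shown for the 3 members that were lower with YAP shRNA 1, and for SULT1E1, which neighbours SULT1B1 on chromosome 4 and whose main probe set read higher on every YAP shRNA 1 array, without being called. Each holds the 250 bases before the start, read 5′ to 3′ in the direction of the gene, from RefSeq on GRCh38.p14. The windows lie at chr2:200585764-200586013, plus strand (AOX1), chr4:69760621-69760870, minus strand (SULT1B1), chr4:69860146-69860395, minus strand (SULT1E1) and chr15:74725529-74725778, minus strand (CYP1A1). Capitals mark matches on either strand to GCGTG, the core bound by the aryl hydrocarbon receptor, to CATTCC, the TEAD core, and to TATAAA, the TATA box.
AOX1: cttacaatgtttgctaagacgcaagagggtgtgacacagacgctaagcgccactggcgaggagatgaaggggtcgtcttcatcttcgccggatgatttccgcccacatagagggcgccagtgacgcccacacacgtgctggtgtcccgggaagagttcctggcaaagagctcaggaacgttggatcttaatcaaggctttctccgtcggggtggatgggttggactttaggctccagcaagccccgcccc
SULT1B1: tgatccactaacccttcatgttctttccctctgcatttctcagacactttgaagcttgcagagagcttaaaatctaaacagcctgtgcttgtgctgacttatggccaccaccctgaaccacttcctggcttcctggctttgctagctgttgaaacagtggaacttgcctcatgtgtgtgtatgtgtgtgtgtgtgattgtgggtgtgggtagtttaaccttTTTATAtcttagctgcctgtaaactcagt
SULT1E1: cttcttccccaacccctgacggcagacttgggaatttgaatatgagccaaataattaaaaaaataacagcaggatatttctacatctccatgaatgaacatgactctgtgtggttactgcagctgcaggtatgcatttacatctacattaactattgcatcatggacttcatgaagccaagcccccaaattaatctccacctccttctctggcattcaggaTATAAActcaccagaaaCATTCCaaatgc
CYP1A1: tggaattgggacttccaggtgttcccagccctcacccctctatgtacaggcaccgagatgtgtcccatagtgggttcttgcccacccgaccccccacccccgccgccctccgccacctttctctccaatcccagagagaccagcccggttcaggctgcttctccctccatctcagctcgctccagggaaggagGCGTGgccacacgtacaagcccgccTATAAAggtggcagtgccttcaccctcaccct

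Of the 10 members, 8 had a RefSeq window, with 3 windows for EPHX1. ALDH3A1 and CYP1B1 are named only. Besides the motifs above, TGACNNNGC, the core of the antioxidant response element, and TGANTCA, the AP-1 site, were searched on both strands. None of the matches overlapped another. GCGTG was found in 4 members, CYP1A1, ALDH1A3, SULT2B1 and EPHX1, where 32.2% of all 35116 RefSeq windows of this length hold it. CYP1A1, the model target of the receptor, had a GCGTG from 57 to 53 bases before the start and a TATA box just downstream of it. TATAAA was found in CYP1A1, SULT1E1 and, on the opposite strand, SULT1B1, against 10.7% of all windows. The TEAD core, the motif of the factors through which YAP acts, was found in SULT1E1 only, from 12 to 7 bases before the start, against 11.9% of all windows. TGACNNNGC was found in 1 EPHX1 window (10.9% of all windows) and TGANTCA in no member (6.57% of all windows). The AOX1 and ALDH1A1 windows held none of these letters. A match in such a window is a description of its letters, and nothing about binding was measured. Bases farther from the start were not searched, so a window without a match does not show that a gene lacks the motif.

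**Figure D1:**
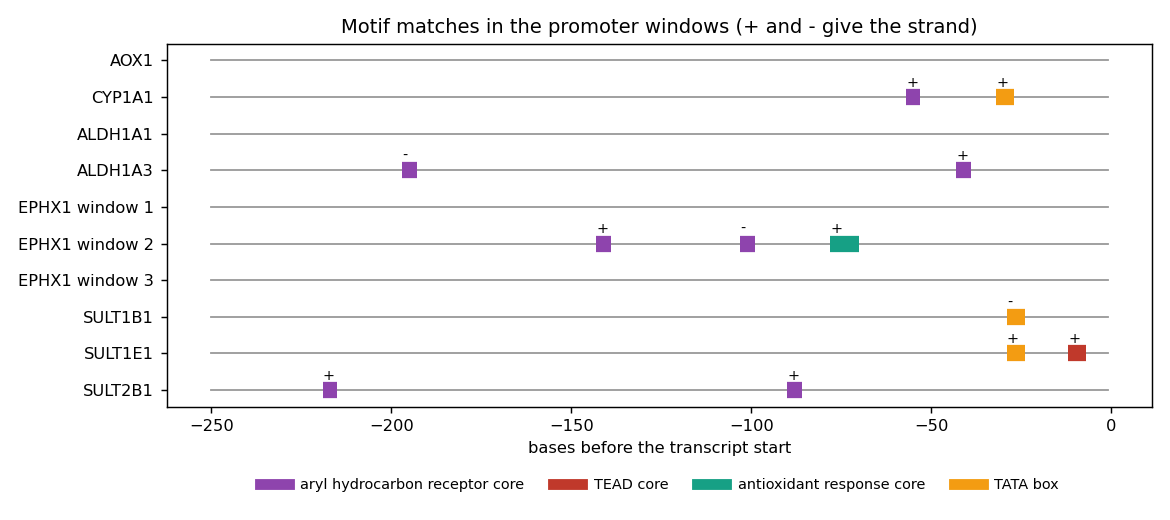
Positions of the 4 matched motifs in the 250-base windows of 8 members, as bases before the transcript start on the x axis, with the strand of each match above it. EPHX1 has 3 windows; the AOX1 and ALDH1A1 windows carry no match, and the TEAD core appears once, in SULT1E1.

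Of the 10 members, 4 were among the genes called changed (limma, p below 0.05 after Benjamini-Hochberg adjustment across the whole table), 1 higher and 3 lower with YAP shRNA 1. Over all 19775 genes, 16.7% were called, 9.49% up and 7.17% down. Since the members were chosen from this contrast, nothing is read from that count. Without YAP shRNA 1 replicate 4 the number was 2, AOX1 and SULT1B1. The median log2 fold change of the members was -0.01, and that of all genes 0.01. For 6 members the 4 arrays of one group did not overlap the 4 of the other, 3 higher and 3 lower, where 24.3% of all genes separate in this way, 13.4% higher and 10.9% lower. SULT1B1 and AOX1 changed at least 2-fold, as did 140 called genes in all, and the other 8 members moved by less. The changes thus ran from a 4.11-fold loss of SULT1B1 to a 1.25-fold gain of EPHX1.

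AOX1 encodes aldehyde oxidase, a cytosolic molybdenum and flavin enzyme that oxidises aldehydes and nitrogen heterocycles in many drugs. AOX1 stood at 6.16, 6.39, 6.23 and 5.98 on the YAP shRNA 1 arrays, against 7.82, 7.70, 7.74 and 7.91 on the control shRNA arrays. Every YAP shRNA 1 array lay far below every control array, and the spread within a group was a small part of the distance between groups. The means were 6.19 ± 0.171 and 7.79 ± 0.0923 (SD, n = 4 each), a 3.03-fold difference (log2 fold change -1.60, standard error 0.088). The arrays read RNA of whole cultures, in which fewer expressing cells and less RNA per cell cannot be told apart. The second AOX1 probe set gave 5.88, 6.12, 6.14 and 6.06 with YAP shRNA 1, against 7.29, 7.21, 7.42 and 7.29 with the control shRNA. It separates the groups as cleanly, with a smaller log2 fold change of -1.26. AOX1 had the 12th steepest fall among called genes. The 3 genes whose profiles over the 8 arrays, each centred on its own mean, lay closest to that of AOX1 among all 19775 were IL6, MFAP5 and DDIT4L, with root mean square differences of 0.110, 0.117 and 0.124 on the log2 scale. IL6 is an inflammatory cytokine gene and MFAP5 encodes a microfibril component. Their log2 fold changes were -1.60, -1.58 and -1.44. Profiles this close must have fold changes near that of AOX1, so the likeness follows from how they were picked. Shared regulation was not tested.

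CYP1A1 and CYP1B1 encode monooxygenases that act on polycyclic aromatic hydrocarbons and on estrogens. CYP1A1 stood at 4.43, 4.58, 4.31 and 4.18 with YAP shRNA 1, against 4.67, 4.69, 4.95 and 4.97 with the control shRNA. The groups did not overlap, but the highest YAP shRNA 1 array lay only just below the lowest control array. The log2 fold change was -0.44 (standard error 0.104), a 1.36-fold difference at a level well under the median of 7.44 over all genes. CYP1A1 was no longer called without YAP shRNA 1 replicate 3 (log2 fold change -0.42), without YAP shRNA 1 replicate 4 (-0.38) or without control shRNA replicate 3 (-0.40). CYP1A2, its neighbour on chromosome 15 and another target of the receptor, had a log2 fold change of -0.01 (limma adjusted p = 0.945). CYP1A2 was also under that median, averaging 5.68 in both groups, and without a detection call such a flat reading may be background.

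The main CYP1B1 probe set read 7.15, 7.24, 7.16 and 6.71 with YAP shRNA 1, against 7.57, 7.19, 7.39 and 7.24 with the control shRNA. These groups overlapped, and YAP shRNA 1 replicate 4 held the lowest value. The log2 fold change of -0.29 (standard error 0.129) was not called and stood at -0.17 without that array. The other 3 CYP1B1 probe sets gave -0.14, -0.05 and -0.06, also with overlapping groups, so the 4 probe sets share a sign and differ in size.

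ALDH1A1 and ALDH1A3 encode retinaldehyde dehydrogenases, and ALDH3A1 an enzyme for medium-chain and aromatic aldehydes that is abundant in the cornea. ALDH1A3, with EPHX1 1 of the 2 members above the median level of all genes, stood at 13.24, 13.24, 13.22 and 13.14 with YAP shRNA 1, against 13.13, 13.09, 13.12 and 13.03 with the control shRNA. The lowest YAP shRNA 1 value lay next to the highest control value, and the log2 fold change of 0.11 (standard error 0.041) was not called. It was called under 2 of the alternatives, with a trend in the spread model and with genes below the median level left out. The second ALDH1A3 probe set averaged 5.22 in both groups, with a log2 fold change of 0.00.

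ALDH1A1 read 3.44, 3.40, 3.46 and 3.46 with YAP shRNA 1, against 3.46, 3.29, 3.66 and 3.48 with the control shRNA. The groups overlapped fully and the log2 fold change was -0.03 (standard error 0.072). ALDH3A1 read 6.56, 6.45, 6.63 and 6.48 with YAP shRNA 1, against 6.52, 6.64, 6.37 and 6.56 with the control shRNA, again with full overlap (log2 fold change 0.00, standard error 0.067). Neither ALDH1A1 nor ALDH3A1 gave a called difference, and both lay below the median level of all genes.

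EPHX1 encodes the microsomal epoxide hydrolase, which opens reactive epoxides such as those made by P450s. Its values were 10.84, 10.79, 10.82 and 10.91 with YAP shRNA 1, against 10.49, 10.44, 10.42 and 10.73 with the control shRNA. All YAP shRNA 1 arrays lay above all control arrays, and control shRNA replicate 4 came closest to them. EPHX1 was the 1 member called higher, with a log2 fold change of 0.32 (standard error 0.071), a 1.25-fold difference. The difference was 0.39 without control shRNA replicate 4, and it was no longer called without YAP shRNA 1 replicate 4 (0.29).

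SULT1B1 encodes a sulfotransferase for thyroid hormones and small phenols that is known from liver and gut. It stood at 4.86, 4.82, 4.72 and 5.04 on the YAP shRNA 1 arrays, against 7.41, 7.20, 7.09 and 5.89 on the control shRNA arrays. The YAP shRNA 1 arrays were tight and low, and 3 control arrays were higher. Control shRNA replicate 4 lay between them, still above every YAP shRNA 1 array. Every one of these values lay under the median of 7.44 over all genes. Without a detection call the low YAP shRNA 1 readings may be background, which would leave the size of the fall uncertain. The means were 4.86 ± 0.134 and 6.90 ± 0.684 (SD, n = 4 each), a 4.11-fold difference (log2 fold change -2.04, standard error 0.295), the 4th steepest fall among called genes. Without control shRNA replicate 4 the log2 fold change was -2.37. The gene has 1 single-symbol probe set, so no second reading is at hand. The nearest profiles over the 8 arrays were those of LDB2, SERPINB7 and CLDN11, at root mean square differences of 0.295, 0.391 and 0.399 and thus farther off than the nearest genes of AOX1. They had log2 fold changes of -1.75, -1.87 and -2.17, and here too the likeness in fold change follows from how they were picked. LDB2 stood at 0.07 when probe sets with IDs ending in _x_at or _s_at were left out, and CLDN11 at -0.72 with the mean of its probe sets.

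SULT1E1, the estrogen sulfotransferase gene and next to SULT1B1 in the RefSeq gene order on chromosome 4, stood at 4.37, 4.37, 4.35 and 4.54 with YAP shRNA 1, against 4.20, 4.23, 4.31 and 3.77 with the control shRNA. The groups did not overlap, with all YAP shRNA 1 arrays higher, but the values are dim and the log2 fold change of 0.28 (standard error 0.114) was not called. It was 0.16 without control shRNA replicate 4, the lowest array. The other SULT1E1 probe set, at 2.15 to 2.78 with YAP shRNA 1 and 2.34 to 2.81 with the control shRNA, gave -0.12 with overlapping groups. The 2 probe sets thus differ in sign.

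SULT2B1 encodes a sulfotransferase for cholesterol and other 3-beta-hydroxysteroids and is known from skin. Its values were 5.88, 5.84, 5.86 and 5.69 with YAP shRNA 1, against 5.69, 5.80, 5.68 and 5.84 with the control shRNA. These groups overlapped (log2 fold change 0.06, standard error 0.058). Among the 3 sulfotransferase genes, then, SULT1B1 alone was called.

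**Figure D2:**
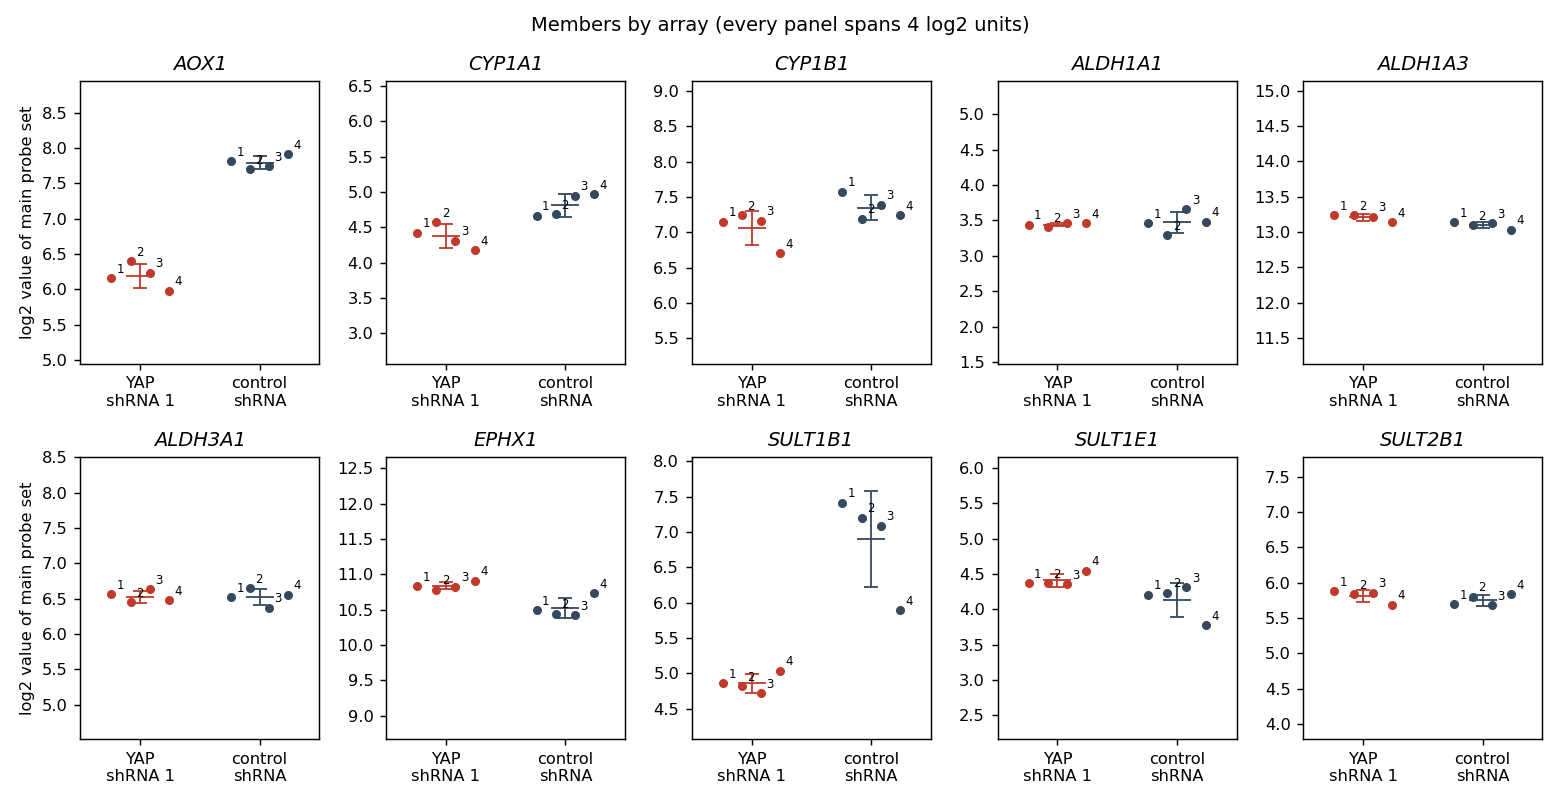
Deposited log2 values of the main probe set of each member on the 4 YAP shRNA 1 arrays (red, left) and the 4 control shRNA arrays (blue, right), with replicate numbers, the mean and the SD; every panel spans the same log2 range. AOX1 and SULT1B1 are clearly lower with YAP shRNA 1, control shRNA replicate 4 stands at 5.89 for SULT1B1, and the ALDH3A1, ALDH1A1, CYP1B1 and SULT2B1 groups overlap.

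**Figure D3:**
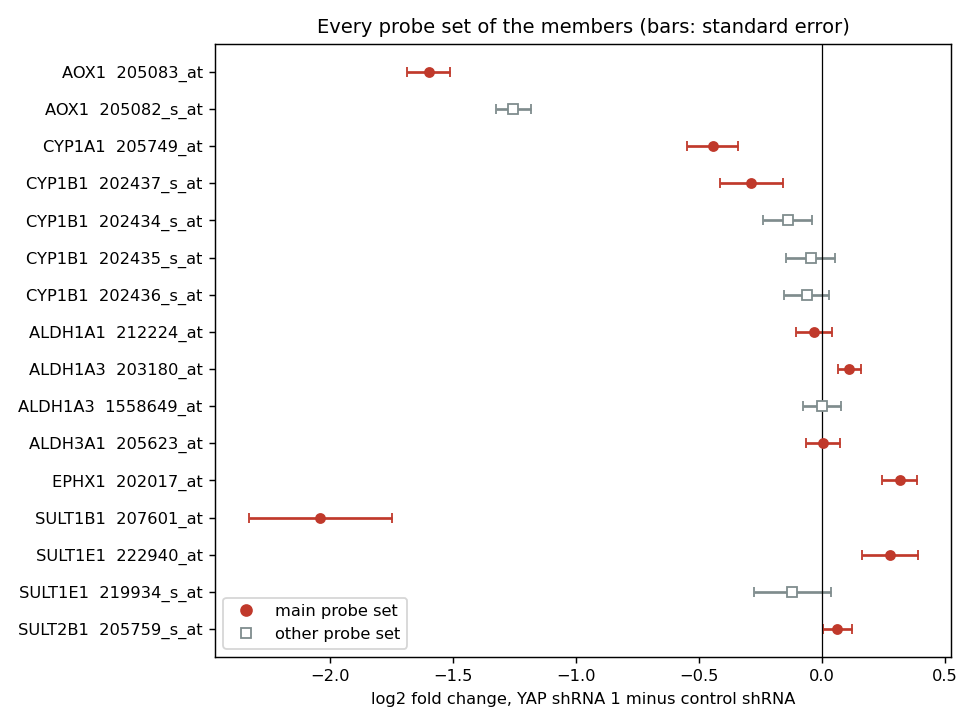
Log2 fold change (YAP shRNA 1 minus control shRNA) with its standard error for the 16 probe sets of the 10 members, main probe sets filled and others open. Both AOX1 probe sets are far below 0, the 4 CYP1B1 probe sets lie between -0.29 and -0.05, and the 2 SULT1E1 probe sets fall on opposite sides of 0.

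**Figure D4:**
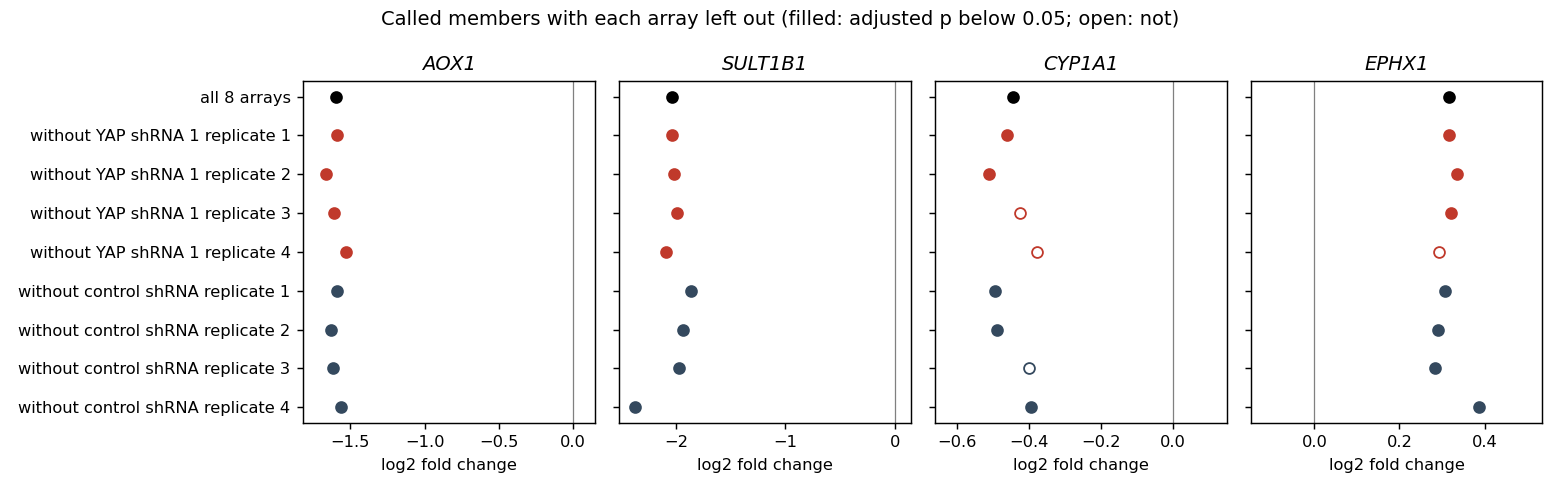
Log2 fold change of the 4 called members with all 8 arrays and with each array left out in turn; filled points were called and open points were not. AOX1 stays between -1.67 and -1.53 and SULT1B1 between -2.37 and -1.87, while CYP1A1 is open in 3 of the 8 settings and EPHX1 in 1.

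One control array bears on several members. In limma's array weights control shRNA replicate 4 received 0.280, where the other arrays received 0.793 to 1.81. Its difference from the mean of the other 3 control arrays was -1.34 for SULT1B1 and 0.28 for EPHX1, toward the YAP shRNA 1 arrays in both cases. For SULT1E1 and CYP1A1 it was -0.48 and 0.20, away from the YAP shRNA 1 arrays. Without it the same number of members was called, 4, and the sign of those 4 did not change. Without it the log2 fold change of AOX1 was -1.56, that of CYP1B1 -0.32, that of ALDH1A3 0.09 and that of SULT2B1 0.09, with none of these calls changed.

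Markers were used to check the label of the cells. KRT7, KRT19, EPCAM and SOX9, markers of biliary epithelium, averaged 13.60, 14.19, 13.07 and 13.16 with YAP shRNA 1 and 13.68, 14.04, 13.06 and 13.23 with the control shRNA. In the same list KRT18 and KRT8 were also far above the median level of all genes, while CFTR, at 6.62 with YAP shRNA 1 and 5.56 with the control shRNA, and SPP1, at 4.11 and 4.41 in the same order, lay below it. Among hepatocyte markers the albumin gene ALB averaged 4.16 with YAP shRNA 1 and 4.32 with the control shRNA. SERPINA1, in contrast, was bright at 12.91 with YAP shRNA 1 and 12.72 with the control shRNA, and CPS1 stood at 7.44 and 7.94 in the same order. Of 9 hepatocyte markers these were the 2 called, SERPINA1 rising and CPS1 falling, and the 2 at or above the median level. The mean level of that list was 6.35 to 6.45 on the YAP shRNA 1 arrays and 6.35 to 6.42 on the control shRNA arrays, ranges that overlap. Of 8 measured biliary markers KRT19 and CFTR rose, by 0.15 and 1.07. KRT7, KRT18, KRT8, SOX9 and SPP1 had negative log2 fold changes, none of them called, and the median of the list was -0.06. The mean level of that list was 11.43 to 11.45 on the YAP shRNA 1 arrays and 11.28 to 11.42 on the control shRNA arrays. These ranges do not overlap, but with a negative median they do not stand for a rise of most biliary markers. Of 6 fibroblast markers COL1A1 rose, with list means of 5.83 to 5.94 and 5.66 to 5.98. Of 4 measured leukocyte markers LYZ rose and PTPRC fell, with list means of 4.94 to 5.07 and 4.75 to 5.08, and of 5 endothelial markers none was called, with list means of 4.89 to 5.09 and 4.74 to 5.08 (YAP shRNA 1 and then control shRNA in each case).

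The other genes of these pathways were taken in 9 lists of related enzymes, carriers and regulators that hold no member. Of their 123 measured genes, 30 rose and 8 fell, 30.9%, against 16.7% of all genes. Their median log2 fold change was 0.07, against 0.01 over all genes. The lists were chosen with earlier results of these data known, so no enrichment is read from these shares or from those by level below. The same holds for the counts of rises and falls in single lists, where 15% to 50% of genes were called. Calls depend on level: of the 68 list genes at or above the median level of all genes 33 were called, and of the 55 below it 5, where 26.6% and 6.73% of all genes on those sides were called. Over all genes 1876 rose and 1418 fell, and with each array centred on its median 1485 rose and 1879 fell, so the balance of directions depends on the scaling. In the lists, rises and falls numbered 22 and 9 with that centring. Without control shRNA replicate 3, 22 list genes were called in place of 38.

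The sulfotransferase and sulfate donor list gave 5 rises and 1 fall among 12 measured genes, with a median of 0.16. SULT1A1, the main phenol sulfotransferase gene, rose by 0.37 (limma adjusted p = 0.00263), and SUMF1, which activates sulfatases, by 0.31 (0.0184). PAPSS2, which makes the sulfate donor PAPS, fell by 0.26 (limma adjusted p = 0.00215). SULT1A1 had -0.02 without probe sets ending in _x_at or _s_at, and close copies of the gene can share its probes. SUMF1 was not called without YAP shRNA 1 replicate 1 (0.29), YAP shRNA 1 replicate 2 (0.31) or control shRNA replicate 3 (0.30). The list held 2 calls without YAP shRNA 1 replicate 1 or control shRNA replicate 3, 3 without YAP shRNA 1 replicates 2 or 4 or control shRNA replicate 2, and 1 among 9 genes without probe sets ending in _x_at or _s_at.

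AOX1 shares its molybdenum cofactor with XDH, xanthine dehydrogenase, and the list of molybdenum enzymes and cofactor synthesis moved in both directions, with 3 rises and 1 fall among 9 genes (median 0.15). XDH rose by 0.59, at 7.47 ± 0.103 with YAP shRNA 1 and 6.87 ± 0.131 with the control shRNA (SD, n = 4 each; limma adjusted p = 0.0012). MTARC1, a mitochondrial amidoxime reductase gene, rose by 0.26 (0.014). MOCS2, a subunit gene of the synthase that makes the cofactor's precursor, fell by 0.43 (limma adjusted p = 0.000802).

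Among 16 other aldehyde dehydrogenase genes, 5 rose and 1 fell, with a median of 0.14. With each gene's probe sets averaged, 1 rose and 1 fell, and without probe sets ending in _x_at or _s_at 3 of 12 rose and none fell. ALDH3B1 and ALDH2, the mitochondrial enzyme that clears acetaldehyde, rose by 0.39 and 0.35 (limma adjusted p = 0.00489 and 0.00219), although ALDH3B1 stood at 0.14 and was not called with the mean of its probe sets (0.107). ALDH1B1, a mitochondrial enzyme as well, fell by 0.28 (limma adjusted p = 0.00676).

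Around ALDH1A3, the retinoid list of 15 measured genes gave 3 rises and no fall, with a median of 0.21. DHRS3, which reduces retinaldehyde back to retinol, rose by 1.09, at 10.61 ± 0.0510 with YAP shRNA 1 and 9.52 ± 0.110 with the control shRNA (SD, n = 4 each; limma adjusted p = 2.4e-05). CRABP2, which carries retinoic acid to its receptors, rose by 1.07 (limma adjusted p = 3.57e-05). Without control shRNA replicate 4, 6 genes of this list rose.

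The RNA of AHR, the receptor that governs CYP1A1 and CYP1B1, did not give a called difference, and the receptor's activity was not measured. AHR had a log2 fold change of 0.01 (limma adjusted p = 0.849) and its partner gene ARNT 0.04 (0.58). The feedback genes AHRR and TIPARP had 0.07 (limma adjusted p = 0.409) and -0.02 (0.777). AHRR was dim, averaging 5.87 with YAP shRNA 1 and 5.80 with the control shRNA. A part of the receptor in the CYP1A1 difference was not tested. Of the 7 measured genes of that list, ARNT2 fell by 0.41 (limma adjusted p = 0.00921) and NQO1, a quinone reductase gene, rose by 0.17 (0.0338). NQO1 kept its call in 1 of 8 fits that leave out an array, the one without control shRNA replicate 4, so the list's count was 1 in the other 7.

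Of 20 other P450 and electron donor genes, 3 rose and none fell, with a median of 0.04. That is 15% called, against 16.7% of all genes. CYP3A5, of the subfamily that handles many drugs in liver and gut, rose by 1.11, at 6.33 ± 0.168 with YAP shRNA 1 and 5.22 ± 0.307 with the control shRNA (SD, n = 4 each; limma adjusted p = 0.0015). It stood at 0.63 with the mean of its probe sets. CYP2J2, an arachidonic acid epoxygenase gene, rose by 0.36 (limma adjusted p = 0.0454) with overlapping groups, and kept its call in 1 of the 8 fits that leave out an array, the one without control shRNA replicate 4.

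In the list for glucuronide, glutathione and acetyl conjugation, 7 of 23 genes rose and 2 fell, with a median of 0.03. GSTO2 and MGST2 rose by 0.36 and 0.25 (limma adjusted p = 0.00118 and 0.0105), and the glutathione transferase genes GSTM1 and GSTM3 fell, both by 0.39 (0.029 and 0.000373). GSTM1 is dim, often deleted in people and close in sequence to its neighbours, and its call was lost without control shRNA replicate 1, 2 or 3 (-0.34, -0.42 and -0.39). The list held 9 calls with all arrays, 5 without YAP shRNA 1 replicate 2 or control shRNA replicate 2, 4 without YAP shRNA 1 replicates 3 or 4, and 3 without control shRNA replicate 3.

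Of 15 other epoxide hydrolase, monooxygenase and esterase genes, 2 rose and 1 fell, with a median of -0.03. With quantile normalization 1 rose and 3 fell, with median centring 1 rose and 2 fell, and without probe sets ending in _x_at or _s_at 1 rose and 2 fell, so the balance of directions turns. EPHX3 and EPHX4, which share the epoxide hydrolase name with EPHX1, rose by 0.35 and 0.17 (limma adjusted p = 0.0011 and 0.0435). EPHX4 kept its call in 1 of the 8 fits that leave out an array, again the one without control shRNA replicate 4. MAOA, monoamine oxidase A, fell by 0.39 (limma adjusted p = 0.000597). Among 6 measured xenobiotic sensors, PPARG, the lipid-sensing nuclear receptor, rose by 0.86 (limma adjusted p = 0.000119) and NR3C1, the glucocorticoid receptor, fell by 0.29 (0.00418). NR3C1 stood at -0.10 without probe sets ending in _x_at or _s_at and was then not called, and PPARG has no other probe set in that setting, so none of the 5 sensors left was called.

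**Figure D5:**
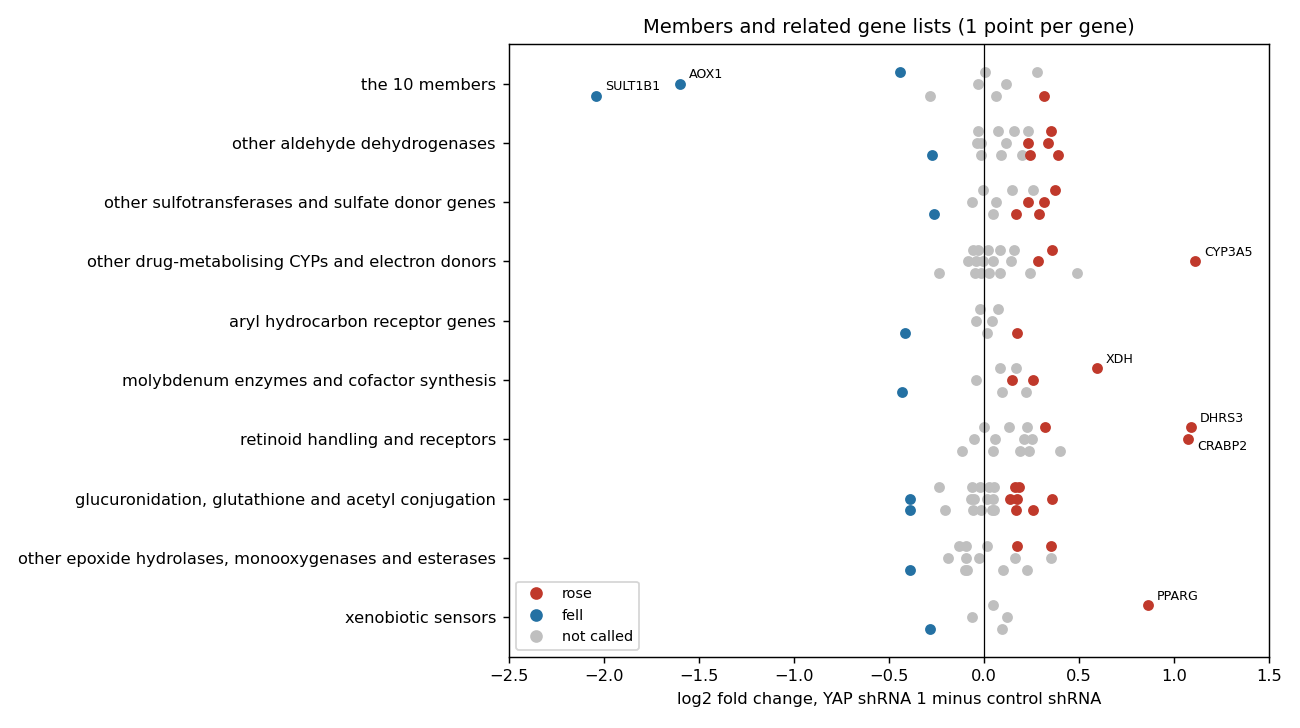
Log2 fold change (YAP shRNA 1 minus control shRNA) of the 10 members and of each measured gene in 9 related lists, 1 point per gene, red where it rose, blue where it fell and grey where it was not called. SULT1B1 and AOX1, at -2.04 and -1.60, lie left of every list gene, and CYP3A5, DHRS3 and CRABP2, at 1.11, 1.09 and 1.07, lie farthest to the right.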

How the data were processed

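Expression was measured on 8 Affymetrix arrays of HuCCT1 cells, 4 with YAP shRNA 1 and 4 with a control shRNA, grouped and numbered by the sample titles. Each probe set has 1 deposited log2 value on each array. The values span 1.72 to 14.9, from which base 2 was taken. How the authors corrected background, summarised probes and normalized arrays is not given in the sources used here. Per the labels' protocols, a NuGEN kit amplified the RNA before biotin labelling. Array medians lay between 6.22 and 6.25, so no further normalization was applied. Values carry no detection call, and 21.1% of genes hold the same value on at least 2 arrays, 4 members among them (SULT1E1, SULT2B1, ALDH1A1 and CYP1B1).

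Of 54675 probe sets, 41097 have 1 symbol in GEO's platform annotation, 1801 several and 11777 none, and 41043 matched the RefSeq table of GRCh38.p14 by Entrez ID. limma 3.58.1 in R 4.3.3 was fitted over 19775 genes, as YAP shRNA 1 minus control shRNA. Moderation was by empirical Bayes without a block, and genes under 0.05 after Benjamini-Hochberg adjustment were called. Members and lists were chosen with earlier results of these data known. Other named genes are the 2 largest called rises and 2 largest called falls of each list, and the 3 profiles nearest to each called member that changed at least 2-fold. Of 144 list genes, 21 were not analysed here. When tested on simulated data drawn for this contrast (19775 genes, 200 of them shifted), limma called 67% of the genes shifted by 0.5 log2. It called 100% of those shifted by 1 log2, and 8 that were not shifted. The simulated noise was normal and independent between genes, and in the data 16.7% of genes were called. These rates need not carry over to the data. The number of arrays limits the precision. The alternatives were other normalizations, filters on dim genes, choices of probe set, spread models, array weights, a threshold of 0.01, leaving out each array, and a replicate block.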

Additional observations from a re-analysis of the deposited data

Results flagged for a closer look

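The 94 groups of 4 values came from 41 named genes and 6 further probe sets of the members. In 10 of them a single array stood apart, its gap to the next value making up most of the group's range. For independent normal values chance gives about 1 in 20, or 4.7. Tied values and arrays shared between genes depart from that, so 4.7 is only a rough guide. Of the 10, 4 lay in control shRNA replicate 4 and 3 in YAP shRNA 1 replicate 4. Among the members, SULT1E1 was high at 4.54 in YAP shRNA 1 replicate 4, against 4.35 to 4.37 on the other arrays of its group. The targeted gene YAP1 was high at 12.77 in control shRNA replicate 3 (12.59 to 12.61 on the others).

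In YAP shRNA 1 replicate 4, ALDH2 was high at 10.44 (10.29 to 10.31) and GSTM1 low at 5.44 (5.84 to 5.85). In YAP shRNA 1 replicate 3, SULT1A1 was at 9.03, where the other 3 arrays share the value 9.05. In control shRNA replicate 4, NQO1 was high at 13.07 (12.91 to 12.92), MOCS2 at 11.92 (11.75 to 11.77), EPHX4 at 9.82 (9.66) and MFAP5 at 10.61 (10.17 to 10.20). CLDN11 was high at 7.76 in control shRNA replicate 1 (7.21 to 7.29).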

How the results depend on the processing

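The fall of YAP1 was called under all 20 alternatives, at -2.20 to -2.10. AOX1 was called in all 19 that keep it in the table, at -1.67 to -1.43, and SULT1B1 in 19, at -2.37 to -1.87. The number of members called was 4 and became 2 without genes below the median level, which removes 8 of the 10 members, 2 at a threshold of 0.01, and 2 to 4 with an array left out. Genes called over the whole table numbered 3294, and 5580 of 41097 with every probe set tested, 1785 at 0.01 and 2106 with the replicate block. List genes called numbered 38, and 25 without probe sets ending in _x_at or _s_at, 20 at 0.01, 22 with the replicate block and 22 to 41 with an array left out. Deviations of same-numbered arrays of the 2 groups correlated at -0.170, -0.0588, 0.00203 and -0.206, so the numbers were not taken as pairs. Under the block CYP1A1 was not called, at -0.44, and 3 members were. SULT1A1 and LDB2 changed sign without probe sets ending in _x_at or _s_at, to -0.022 and 0.072, a setting from which the main probe sets of both are removed. Of 30 named genes besides the members and YAP1, 19 kept their call and sign under every alternative that held them. The cause of the other changes was not tested. Without a detection call, dim readings that differ little between the groups, such as those of ALDH1A1, cannot be told from background.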
